A study of Mus musculus with 4 samples.

Results

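The mouse gene annotation deposited with the series was searched for the gene segments that encode immunoglobulins (antibodies) and T cell receptors. A gene was taken when its biotype, the class the annotation gives it, began with IG_ or TR_. This gave 698 of 46078 annotated genes, 1.51% of the annotation, of which 430 had an immunoglobulin and 268 a T cell receptor biotype. Each was assigned to a locus by the start of its name (Igh, Igk, Igl, Tra, Trb, Trd or Trg) and to a V, D, J or C segment type by its biotype. The names of 43 genes carried none of these starts, and they were placed by position. The annotation classed 205 of the 698 (29.4%) as pseudogenes, and the other 493 are called gene-class segments here.

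The study compared 4 libraries of polyadenylated RNA from bone marrow-derived macrophages of C57/BL6 mice, 1 library per group, and asked how these cells respond to mechanical stimulation with and without the ion channel Piezo1. The groups combined 2 genotypes with static or cyclic pressure in a chamber for 6 h: Piezo1 fl/fl (labelled WT) and Piezo fl/fl, LysM Cre+ (labelled KO), in which Cre is driven by the LysM promoter of myeloid cells. All 4 groups carried the floxed allele, were littermates by the labels' protocols, and were grown with M-CSF at 50 ng/mL. The labels used here give no ages. One annotation serves all 4 libraries. Since no expression values enter, the labelled cell type was not checked against its markers.

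Immunoglobulin and T cell receptor genes are assembled in developing lymphocytes by V(D)J recombination, in which the RAG recombinase joins a V, sometimes a D, and a J segment at recombination signals beside each one. The joined exon is then spliced to a constant (C) gene. Heavy chains (Igh), beta chains (Trb) and delta chains (Trd) use D segments, whereas kappa (Igk) and lambda (Igl) light chains, alpha chains (Tra) and gamma chains (Trg) do not. Macrophages do not carry out this recombination, and a reference annotation lists the segments in their unrearranged order.

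J segments are shown first, because a short codon motif divides them. Sequences here and below are those of GENCODE M21 transcripts of build GRCm38, written 5′ to 3′. Background knowledge of J segments is that a phenylalanine or tryptophan codon is followed by a glycine codon, any codon and a further glycine codon. The letters searched were TTTGGNNNNGGN, TTCGGNNNNGGN and TGGGGNNNNGGN, in which N is any base. Capitals below mark the motif or, where it was missing, 12 bases at the distance from the end that is most common in that locus. No gamma J segment held the motif, so this distance could not be taken from the gamma locus. The capitals of Trgj1 start 37 bases from the end, a position chosen after the letters were seen.
Ighj1: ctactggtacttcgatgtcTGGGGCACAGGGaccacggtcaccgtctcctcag
Ighj2: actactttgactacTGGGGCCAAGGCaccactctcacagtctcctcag
Ighj3: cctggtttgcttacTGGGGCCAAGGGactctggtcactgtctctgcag
Ighj4: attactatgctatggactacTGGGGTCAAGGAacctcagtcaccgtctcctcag
Igkj1: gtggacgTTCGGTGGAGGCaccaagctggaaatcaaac
Igkj3: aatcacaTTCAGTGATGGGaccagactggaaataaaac
Iglj1: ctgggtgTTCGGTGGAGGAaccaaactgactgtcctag
Iglj3p: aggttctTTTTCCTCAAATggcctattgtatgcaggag
Trbj1-1: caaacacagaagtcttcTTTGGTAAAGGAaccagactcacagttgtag
Trbj1-6: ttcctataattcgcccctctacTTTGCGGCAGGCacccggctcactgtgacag
Traj18: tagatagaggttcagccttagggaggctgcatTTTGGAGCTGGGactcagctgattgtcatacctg
Traj33: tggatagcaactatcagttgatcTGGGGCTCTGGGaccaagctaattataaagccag
Traj44: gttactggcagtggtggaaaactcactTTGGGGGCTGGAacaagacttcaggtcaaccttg
Trgj1: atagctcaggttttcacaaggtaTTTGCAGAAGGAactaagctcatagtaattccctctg
Trdj1: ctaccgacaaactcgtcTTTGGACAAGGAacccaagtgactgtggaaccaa
The 4 heavy-chain J segments all carried the tryptophan form, TGG, whereas Igkj1, Iglj1, Trbj1-1 and Trdj1 carried a phenylalanine codon. Traj33 shows that the tryptophan form also occurred among alpha-chain J segments.

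The motif was present on the coding strand of 69 of 84 gene-class J segments (82.1%) and of 1 of 10 J pseudogenes, Traj54. It was found on the opposite strand of 0 of the 94. Reading frame was not part of the search, and the hit of Traj7, 35 bases from its end, was out of the annotated frame. For comparison, 1.39% of 1229149 windows of 60 bases from protein-coding transcripts held the motif on their own strand, and 2.98% on either strand. In the gene class it was missing from Igkj3, Iglj3p, Trbj1-6, Trbj1-7, all 4 gamma-chain J segments and 7 alpha-chain J segments (Traj59, Traj44, Traj41, Traj29, Traj20, Traj19 and Traj3). In Igkj3 the second of the 4 codons was AGT, in Trbj1-6 it was GCG, and in the other defining codons these 2 segments held the searched letters. At the position chosen for the gamma segments, the second codon was GCA in Trgj1, Trgj2 and Trgj3 and GCC in Trgj4. Traj44 instead departed at the first codon, which was TTG. Iglj3p departed at 2 of the 3 defining codons.

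The distance from the motif to the 3′ end of the J segment fell into 2 classes by locus. From the first base of the motif there were 34 bases to the end in all 4 heavy-chain J segments, in both delta-chain ones and in 40 of the 44 gene-class alpha-chain J segments that held the motif. There were 31 bases in all 4 kappa, all 11 beta and 3 of 4 lambda J segments that held it. The exception in lambda was Iglj4, at 35 bases, whose annotated model ran 4 bases longer than the other lambda J segments, 42 against 38 bases. After the last whole codon, 78 of 84 gene-class J segments had 1 coding base left over by the annotated reading frame. The first coding exon of 19 of 21 C genes began with the complementary 2 bases of a split codon, and the exceptions were Ighg2c and Iglc2.

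D segments were the shortest genes of the set, and their letters are given because many were repeated. Examples are shown here, with the bases that are the same in all 6 Ighd2 segments in capitals.
Ighd2-8: tCTActATggTaACtAC
Ighd2-7: tCTActATggTtACgAC
Ighd2-6: cCTActATagTaACtAC
Ighd2-5: cCTActATagTaACtAC
Ighd2-4: tCTActATgaTtACgAC
Ighd2-3: tCTAtgATggTtACtAC
Ighd5-7: aggcagctagcctctgcagtgccacaacc
Ighd6-1: aggcagctagcctctgcagtgccacaacc
Ighd5-4: gaatacctac
Ighd1-1: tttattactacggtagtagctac
Trbd1: gggacagggggc
Trbd2: gggactgggggggc
Trdd1: atggcatat
Trdd2: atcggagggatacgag
The 6 Ighd2 segments, each of 17 bases, agreed at 10 positions and made up 5 different sequences, since Ighd2-6 and Ighd2-5 were identical. Over the whole heavy-chain region, 23 D segments had 16 different sequences. Ighd5-7, Gm37327 and Ighd6-1 were identical over 29 bases, although Ighd6-1 was classed as a pseudogene and the others as genes. Ighd5-6, Ighd5-4, Ighd5-3 and Ighd5-2 shared one 10-base sequence, and Gm37227 and Ighd5-1 shared another. Among T cell receptor D segments, Trbd1 had 12 and Trbd2 14 bases, and the coding transcripts of Trdd1 and Trdd2 had 9 and 16.

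Recombination signals consist of a heptamer beside the segment, a spacer and a nonamer, with the usual letters CACAGTG and ACAAAAACC. No genome sequence was used, so a flank could be read only where another annotated transcript covered it, which was the case for 7 of 703 segment ends. In the sequences below the heptamer and the nonamer are in capitals, and each V signal is read away from the end of its V segment.
Trav13d-3, chr14:53033420-53033458 (plus strand): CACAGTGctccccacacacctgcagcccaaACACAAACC
Trav13n-3, chr14:53337640-53337678 (plus strand): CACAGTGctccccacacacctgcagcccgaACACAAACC
Trdv2-1, chr14:53946661-53946699 (plus strand): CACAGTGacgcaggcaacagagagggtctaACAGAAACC
Trbv5, chr6:41062804-41062842 (plus strand): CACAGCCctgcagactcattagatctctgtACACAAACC
All 5 readable ends of gene-class V segments held a signal by the rule used, at least 12 of 16 heptamer and nonamer bases equal, and all 5 began directly at the annotated end. The fifth was Trdv5, whose flank lies in an exon of Trdc and is not printed. Trbv5 and Trdv5 matched 13 of the 16 bases, without the exact heptamer, and the other V ends matched 15. These 5 signals had a 23-base spacer. The single readable pseudogene end, that of Trbv8, held no match. The Trav13d-3 and Trav13n-3 signals differed at 1 of 39 bases. The same rule was met by 0.182% of the 60-base windows of protein-coding transcripts. A match is a description of letters and was not tested for function.

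V segments made up 555 of the 698 genes, J segments 94, D segments 27 and C genes 22. Pseudogenes were 34.2% of V segments (190), 14.8% of D (4), 10.6% of J (10) and 4.55% of C (1, Gm37944). By name, the heavy-chain locus held 185 V, 20 D, 4 J and 8 C genes, and 70 of its V segments were pseudogenes (37.8%). Kappa held 162 V, 5 J and 1 C, with 61 V pseudogenes (37.7%). Beta held 34 V, 2 D, 14 J and 2 C, with 13 V pseudogenes (38.2%). The alpha locus stood apart from these in its V pseudogene share, 20 of 129 or 15.5%, and in its number of J segments, 60, of which 9 were pseudogenes. Delta held 6 V, 2 D, 2 J and 1 C, and lambda 3 V, 5 J and 4 C with 0 pseudogenes. The gamma prefix covered only 1 V and 4 J segments, because 10 further gamma genes carried names that start with Tcrg. Of the 43 genes with no prefix, 27 were pseudogenes (62.8%), and they included Gm37944, Gm37327, Gm37227, Gm16968, IGKV1D-42 and B230359F08Rik. The counts and shares by name above leave out these 43 genes. Over all segment types, pseudogenes were 33.6% of Igh, 36.3% of Igk and 15.3% of Tra members by name. By position the shares were 37.3%, 40.7% and 14.8%.

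**Figure D1:**
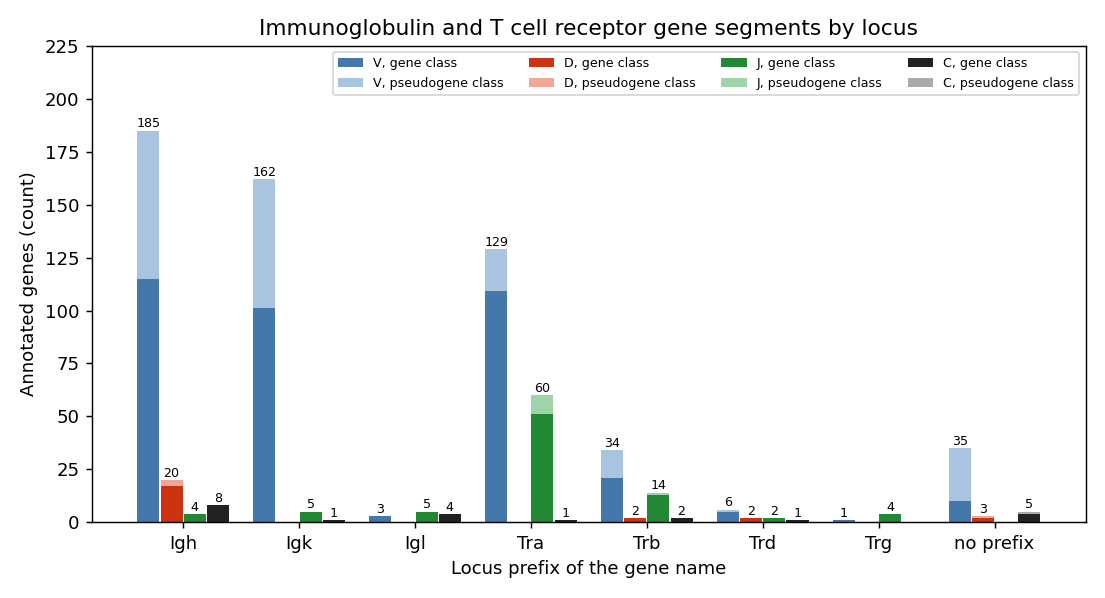
Number of annotated genes (y axis) for each locus prefix (x axis) and segment type, with the pseudogene class stacked in a paler shade on the gene class; numbers give the sum of both. The V bars of Igh, Igk and Tra (185, 162 and 129) are the tallest, and only Tra has a tall J bar, at 60.

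The members fell into 6 regions on 5 chromosomes of GRCm38, with 2 members outside. The heavy-chain region was on chromosome 12 from 113254830 to 116010093 and held 233 members in 2.76 Mb. The kappa region was on chromosome 6 from 67555497 to 70726966, with 182 members in 3.17 Mb, and the beta region on the same chromosome from 40891229 to 41558452, with 52 members in 0.667 Mb. The alpha and delta genes shared one region on chromosome 14 from 52427928 to 54224206, with 202 members in 1.80 Mb. Lambda was on chromosome 16 from 19061618 to 19260859 with 12 members, and gamma on chromosome 13 from 19178024 to 19352756 with 15. Alpha and delta were the densest, with 11.2 members per 100 kb, and kappa the sparsest of the 6, with 5.74. Exons of the members covered between 1.59% (lambda) and 3.71% (gamma) of these spans. The pair outside were Gm17472 and Gm20730, both classed IG_LV, 100 kb apart on chromosome 6 between 42980690 and 43082097 and on opposite strands.

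**Figure D2:**
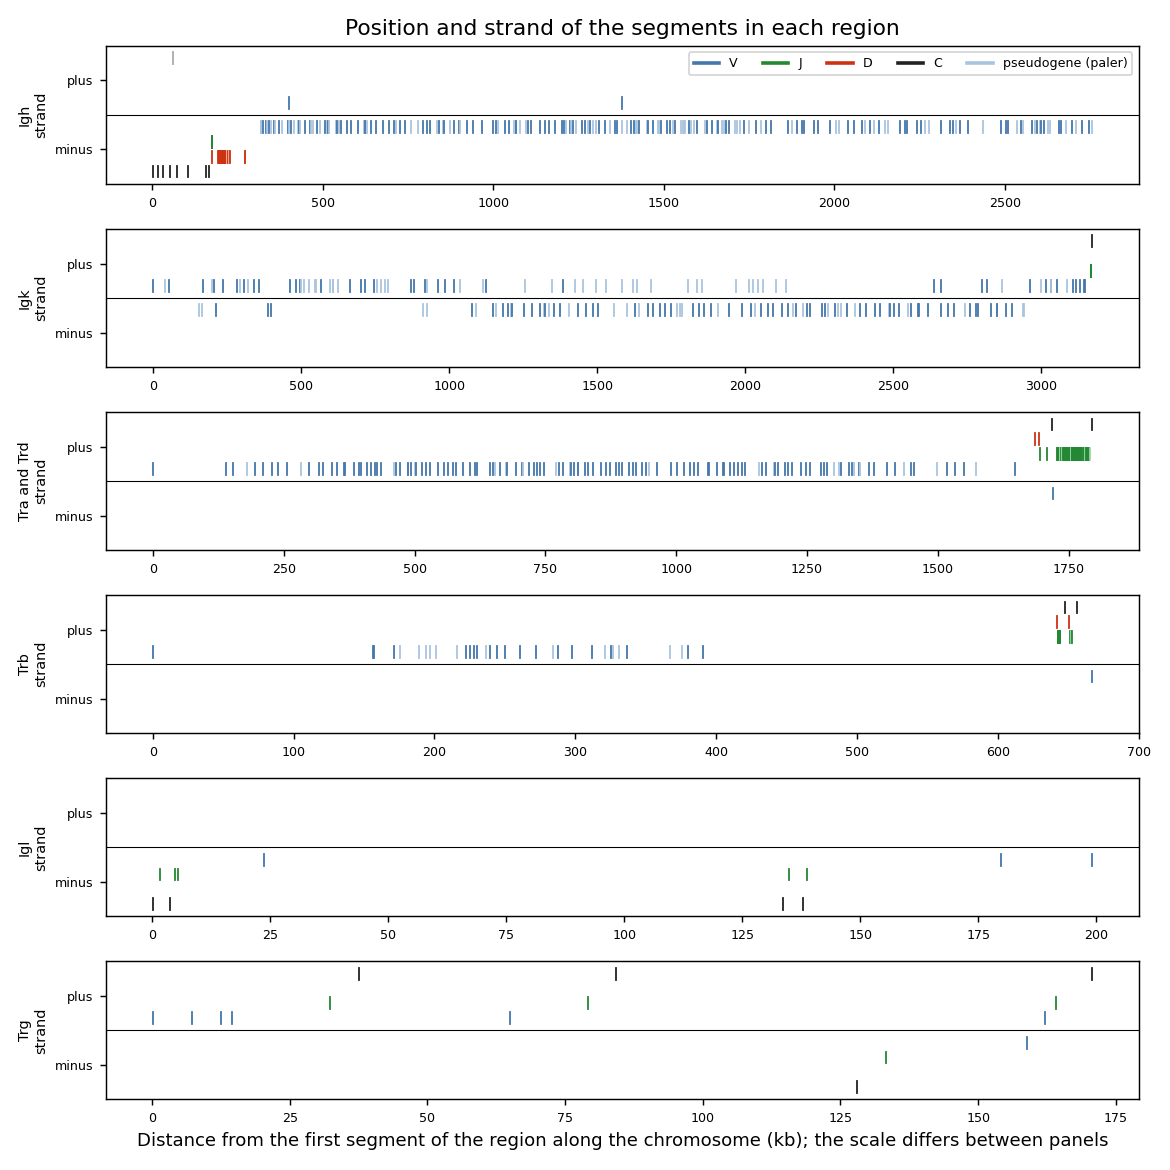
Position of each segment along its region (x axis, kb from the first segment, scale differing between panels) by strand (y axis), with V, J, D and C at increasing distance from the centre line and pseudogenes paler. Igh lies almost wholly on the minus strand, Igk V segments on both strands, and the alpha J array at the right end of the Tra and Trd panel.

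The heavy-chain region read, in order of rising coordinate, as C genes, J segments, D segments and V segments, all on the minus strand with 3 exceptions, so that in the direction of transcription V comes first. The exceptions on the plus strand were the C pseudogene Gm37944 and the IG_LV genes named Ighv5-8 and Ighv1-13. The constant genes ran Ighm, Ighd, Ighg3, Ighg1, Ighg2b, Ighg2c, Ighe and Igha in the direction of transcription, which are the mu, delta, gamma, epsilon and alpha classes of antibody. Ighd followed Ighm after 2.23 kb, whereas the gap from Ighd to Ighg3 was 45.4 kb, the widest of the set, and the later gaps lay between 10.9 and 29.1 kb. The 158 kb between Igha and Ighm held 0 protein-coding genes other than members. Ighj4, the J segment nearest to Ighm, lay 5.78 kb from it, and Ighj1 lay 694 bases from the nearest D segment, Ighd4-1. The name Ighd belongs to the delta constant gene, while names such as Ighd1-1 belong to D segments.

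Within the D array a 29-base and a 10-base segment recurred at a fixed step. In 4 places a 29-base segment (Ighd5-8, Ighd5-7, Gm37327 and Ighd6-2) was followed by a 10-base one that began exactly 237 bases further along the chromosome. Consecutive 29-base segments began 4660, 4665, 5686 and 5268 bases apart. The 6 Ighd2 segments were spaced by 4649 to 5869 bases, with a median of 4667, over 24.6 kb. After Ighd1-1, 43.1 kb holding the protein-coding gene Adam6b separated these segments from Ighd3-1, Ighd5-1 and Gm16968. From Gm16968 to Ighv5-1, the first V segment, there were 44.9 kb.

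The 16 named families of heavy-chain V segments differed in extent. Family Ighv1 held 93 of the 185 (50.3%), of which 39 were pseudogenes, and covered the distal 1658 kb up to Ighv1-86, the last V segment. Ighv8 (16 segments over 1526 kb) was interspersed through much of the same stretch. Ighv5 (22 over 747 kb, 11 pseudogenes) and Ighv2 (11 over 305 kb) lay nearest to the D segments. Ighv16 had 1 member. Between V segments that carry the Igh prefix, leaving out unprefixed ones, the median gap was 11387 bases. The widest such gap, 59.3 kb between Ighv1-62-1 and Ighv1-62-2, held the unprefixed V pseudogenes Gm37511 and Gm38184.

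Kappa V segments were divided between the strands. By prefix, 76 of 162 (46.9%) lay on the strand of the constant gene, against 183 of 185 in Igh, 129 of 129 in Tra and 33 of 34 in Trb. Of 176 in the region, prefix or not, 82 were on the plus strand of Igkc and the J segments and 94 (53.4%) on the minus strand. They formed 63 runs of one strand, 38 of them a lone segment, and the longest run held 27 segments from Igkv4-50 to Igkv8-27, on the minus strand. The first V segment was Igkv2-137 and the last was Igkv3-1, which closed a plus-strand run of 12 and lay 18.4 kb from Igkj1. Pseudogenes were 53.7% of the plus-strand and 31.9% of the minus-strand V segments.

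By the deposited names, families Igkv13 and Igkv4 lay on opposite strands. A minus-strand, gene-class segment named Igkv12-47 is called Igkv13-85 in GENCODE M21, so the split does not hold by those names. All 18 Igkv13 segments were on the plus strand and 17 were pseudogenes, whereas all 33 Igkv4 segments were on the minus strand and 7 were pseudogenes. In 17 places an Igkv13 segment was followed along the chromosome by an Igkv4 one, at gaps of 5815 to 21310 bases with a median of 7144. The median gap between V segments that carry the Igk prefix was 16775 bases. The widest was 101 kb, between Igkv1-135 and Igkv14-134-1, and the narrowest was 97 bases, between Igkv3-9 and Igkv3-8.

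The number at the end of a kappa V name follows position, and 6 of 162 names broke that order. Among these were 4 names used for a second gene elsewhere in the locus, Igkv19-93, Igkv12-47, Igkv4-56 and Igkv4-73, and the other two were Igkv4-60 and Igkv13-57-1. GENCODE M21, another annotation of the same build, gave the 4 out-of-order copies the names Igkv11-106, Igkv13-85, Igkv4-83 and Igkv4-51, and had 2 names out of order. In all, 6 names were each used for 2 members and 692 were distinct. The other repeated names, Ighv5-8 and Ighv1-13, each covered a plus-strand IG_LV gene with 1 exon (278 and 294 bases) and a minus-strand V pseudogene over the same bases. A table keyed by gene name would merge such pairs.

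The alpha and delta genes were nested. In order of coordinate there were 135 V segments, all on the plus strand, from Trav1 to Trdv4, then Trdd1, Trdd2, Trdj1, Trdj2 and Trdc, then Trdv5 on the minus strand, then the 60 alpha J segments and Trac. Trdv5 overlapped Trdc by 207 bases on the opposite strand and lay 5.71 kb from Traj61, the first alpha J segment. The alpha J numbers fell by position at all 59 steps, from 61 to 1, with the number 10 absent, over 63.8 kb. Traj1 lay 1.68 kb from Trac. The widest V gap, 138 kb between Trav1 and Trav2, held the olfactory receptor genes Olfr1507, Olfr1508 and Olfr1509.

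Many alpha V segments carried names that mark them as copies. Of 129 Trav names, 40 carried the letter d and 34 the letter n, and 32 roots had a d copy, an n copy and a copy with neither letter. The n copies followed the order of the d copies at all 33 steps, and the plain copies at all 37 steps. From d copy to n copy the distance was 290 to 322 kb with a median of 311 kb, and 26 of 34 lay within 2 kb of that median. From n copy to plain copy it was 370 to 395 kb with a median of 386 kb. In 5 roots the copies differed in class, for example Trav13-3, a pseudogene, against Trav13d-3 and Trav13n-3.

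**Figure D3:**
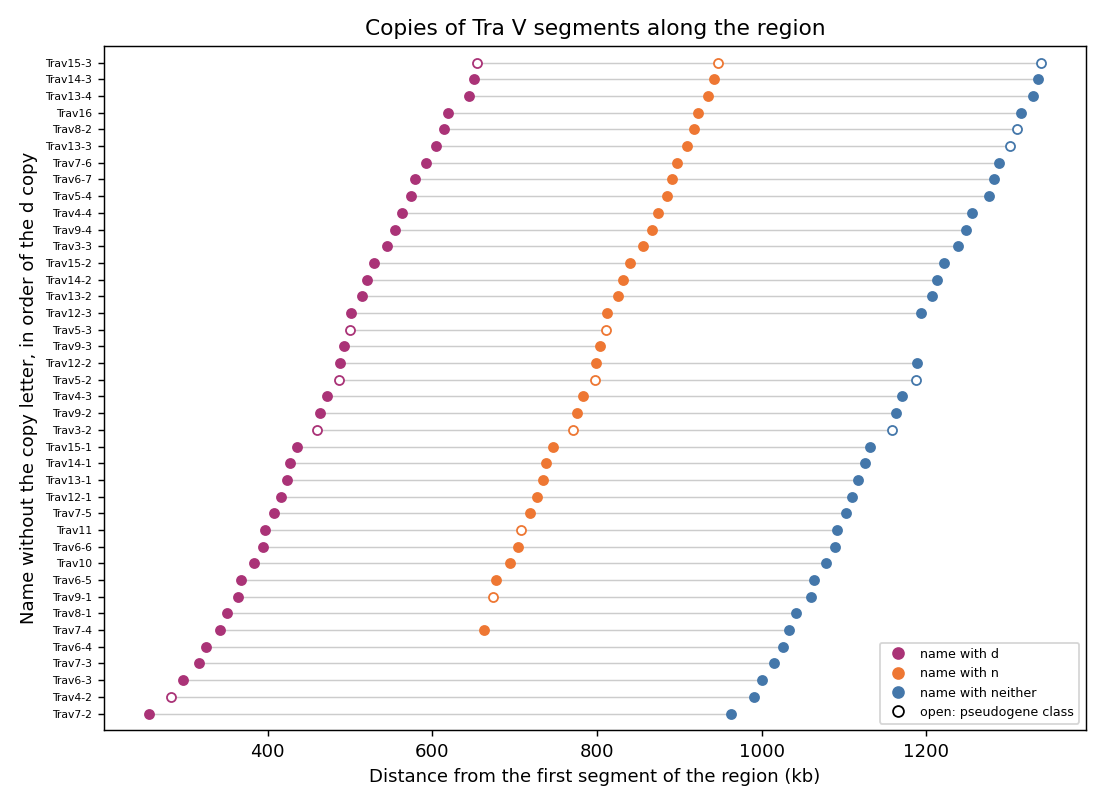
Start of each copy of a Tra V segment (x axis, kb from the first segment of the region) for the 40 roots with a d or n copy (y axis), coloured by the letter in the name, open where the copy is a pseudogene. The 3 columns of points follow the same order, 40 d copies lying before 34 n copies and these before the plain copies at the right.

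The d and n copies were most often the closest in letters. In the last exon, 29 d and n pairs had equal length, and 19 of these had no difference, whereas d and plain copies differed at a median of 7 bases (31 pairs, 1 without a difference) and n and plain copies at a median of 8.5 (26 pairs, 0 without). Among 24 trios with equal lengths, d and n were the closest pair in 18, d and plain in 4, and n and plain in 2. The largest difference was also between a d and an n copy, 189 bases in Trav5d-3 and Trav5n-3. The maximum was 16 bases for d and plain copies and 23 for n and plain copies. Over the whole spliced transcript 17 pairs of V segments were identical, all in the alpha locus, 16 of them a d and an n copy and the other Trav6d-6 with Trav6-6. The other loci had 0 such pairs.

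Beta genes ran V, then 2 clusters of D, J and C. Trbd1 lay 651 bases before Trbj1-1, and Trbj1-7 lay 2.53 kb before Trbc1. The second cluster repeated this with Trbd2, 577 bases before Trbj2-1, and Trbj2-7, 2.87 kb before Trbc2. Trbv31, on the minus strand, lay 9.34 kb beyond Trbc2. Between Trbv1 and Trbv2, 155 kb apart, lay 6 protein-coding genes including Prss58, and between Trbv30 and Trbd1, 251 kb apart, lay 8, including the trypsin genes Prss1, Prss2, Try4, Try5 and Try10. In contrast to the heavy chain, 28 of the 30 named beta V families had 1 member, and Trbv12 and Trbv13 had 3 each.

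Lambda and gamma genes were arranged in small cassettes. In gamma, Tcrg-V7, Tcrg-V4, Tcrg-V6 and Tcrg-V5 were followed by Trgj1 and Tcrg-C1, then Tcrg-V3, Trgj3 and Tcrg-C3. The third cassette was inverted, with Trgv2, Trgj2 and Tcrg-C2 on the minus strand, and the last held Tcrg-V1, Trgj4 and Tcrg-C4. J-to-C gaps were 3700, 3707 and 3693 bases in the first 3 cassettes and 2345 in that of Tcrg-C4. In lambda, all on the minus strand, Iglv1 lay upstream of Iglj3, Iglj3p, Iglc3, Iglj1 and Iglc1, and Iglv2 and Iglv3 lay upstream of Iglj2, Iglc2, Iglj4 and Iglc4. Iglj1, Iglj3 and Iglj4 lay 1153, 1359 and 1182 bases from their C genes, and Iglj2 lay within an exon of Iglc2.

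Most gene-class V segments had a model of 2 exons, a short leader exon and the V exon. Of 365 gene-class V segments 361 (98.9%) had 2 exons, against 125 of 190 pseudogenes (65.8%), and 64 pseudogenes had 1. The 4 gene-class exceptions were in the heavy-chain locus. In 360 segments with 2 coding exons, the coding part of the leader left 1 base after division by 3 in all 360, so that the splice junction split a codon at the same place throughout. The leader most often had 46 coding bases in Igh (99 of 111), 49 in Igk (84 of 101) and 52 in Tra (50 of 109). The intron was shortest in Igh, at 76 to 176 bases and a median of 83, and had medians of 178 in Igk, 170 in Tra, 107.5 in Trb and 240 in Trd. The longest, 1408 bases, was in Trav13n-4. The median V exon had 305 coding bases in Igh, 303 in Igk, 295 in Trb and 291 in Tra.

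Start codons were annotated in 360 of 365 gene-class V segments and in no D, J or C gene, and stop codons in 21 of 21 gene-class C genes and in no V, D or J segment. All 493 gene-class members had coding-sequence lines, and 0 of 205 pseudogenes did. Read in the phase shared by the gene class, a stop codon lay in the V exon of 1 of 360 gene-class 2-exon models and of 111 of 125 pseudogene models (88.8%). Coding-sequence lines are part of the gene-class models, so a frame without stops is close to built into that class. These stop-codon shares are therefore no independent check of the class. A cysteine codon lay in the last 10 codons of 356 of 360 gene-class models (98.9%) and of 74 of 125 pseudogenes (59.2%). In 12 pseudogenes the V exon had no stop codon in phase and held a cysteine codon among its last 10 codons. Any cysteine codon there was counted, at the usual place or not. That of the pseudogene Igkv17-134 began 7 bases from the end, against a gene-class kappa median of 26. The last 30 bases of some V exons are shown with the last such cysteine codon in capitals.
Ighv2-5: tgacactgccatatactacTGTgccaaaaa
Igkv2-137: ttacTGTatgcaacatctagaatatccttt
Iglv1: ttcTGTgctctatggtacagcaaccatttc
Trav1: ctctgcctcatacctcTGTgctgtgaggga
Trbv31: ctctggcttctacctcTGTgcctggagtct
Trdv5: agcgctacttattacTGTgcctcggggtat
Ighv8-2: ttctgccacatactacggtgcttggagaga
Ighv8-9: atactgccacatactactctgctcgaagag
Iglv3: gtgatacaattaaggaacaatttgtgtaac
From the first base of the cysteine codon to the end of the V exon there was a median of 9 bases in the heavy-chain region, 26 in kappa, 16 in beta and 13 in the alpha and delta region. Ighv8-2, Ighv8-9, Iglv3 and Gm17472 were the gene-class models without a cysteine codon there. The Iglv3 exon, at 324 coding bases, was longer than that of Iglv1 (305) and was the one with a stop codon in phase. Ighv8-2 and Ighv8-9 were chosen for print after their values were seen.

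C genes varied in exon number. Igkc, Iglc1, Iglc3 and Iglc4 had 1 exon each. Trbc1 and Trbc2 had coding exons of the same lengths, 375, 18, 107 and 18 bases. In the transcript with most coding exons, Ighm had coding exons of 315, 339, 318, 333, 116 and 6 bases and Ighd of 282, 105, 321, 158 and 6. The short second coding exon of Ighg1 (39 bases), Ighg3 (48) and Ighg2b (66) corresponds by position to the hinge of the antibody. The first coding exon had a median of 312 bases over the 21 genes, from 261 in Trac to 375. Trdc had the longest exon union of all members, 3865 bases, of which 3404 were untranslated and 458 coding.

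Lengths separated the segment types. The union exon length, the bases covered by any transcript of a gene, had a median of 352 for V (113 to 595), 59 for J (29 to 100), 17 for D (10 to 29) and 929.5 for C (314 to 3865). The longest and shortest V segments by prefix were Ighv2-5 (480) and Ighv5-7 (244), Igkv2-137 (501) and Igkv13-89-1 (185), Trav9n-4 (595) and Trav15-3 (155), and Trbv19 (566) and Trbv11 (260). All 27 D and 93 of 94 J segments were shorter than a 75-base read of the study, against 0 V and 0 C genes. The remaining J segment, Ighj2, reached 100 bases through a second transcript of 54 bases that shares 2 bases with the 48-base coding one. Together 120 members (17.2%) were shorter than a read, against 888 of 45380 other genes (1.96%) and 35 of 22159 protein-coding genes.

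**Figure D4:**
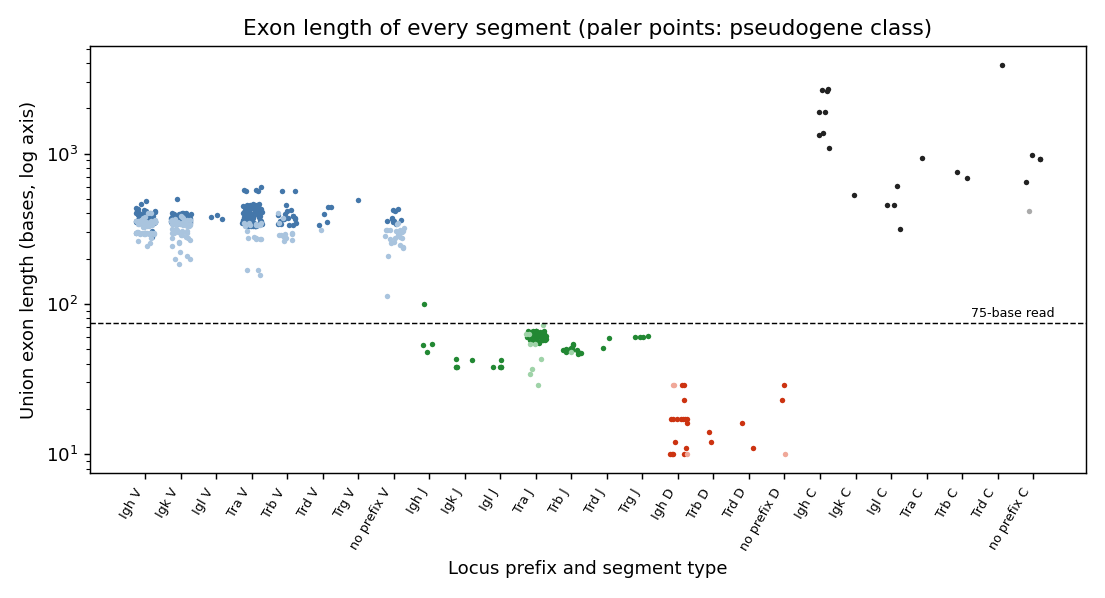
Union exon length of every member (y axis, log scale) by locus prefix and segment type (x axis), paler points being pseudogenes, with the 75-base read length as a dashed line. Every D and every J point except Ighj2 lies under the line, and every V and C point above it.

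A single read that lies wholly in a stretch shared by several segments cannot be assigned to one of them by itself. The share of 75-base windows of each V transcript that another member also holds was therefore computed. The reads of the study were paired, and the mate of such a read, which can lie outside the stretch, was not considered. The median share over gene-class V segments was 60.2% in the alpha locus, 6.07% in kappa, 5.42% in the heavy chain and 0% in beta. With 50-base windows these medians were 69.1%, 25.3%, 22.2% and 0%. With 75-base windows, in the alpha locus 56 of 109 gene-class V segments shared at least 50% of their windows and 37 shared all of them. In the heavy-chain locus the figures were 6 and 2 of 115, and the 2 were the IG_LV genes Ighv5-8 and Ighv1-13, matched on the opposite strand by the pseudogenes that carry their names. None of the 34 beta V segments shared a 75-base window. Among C genes, Trbc1 shared 34.6% and Trbc2 37.7% of their windows, Tcrg-C3 22.0% and Tcrg-C1 17.6%, while Ighm, Ighd, Igkc and Trac shared 0%.

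**Figure D5:**
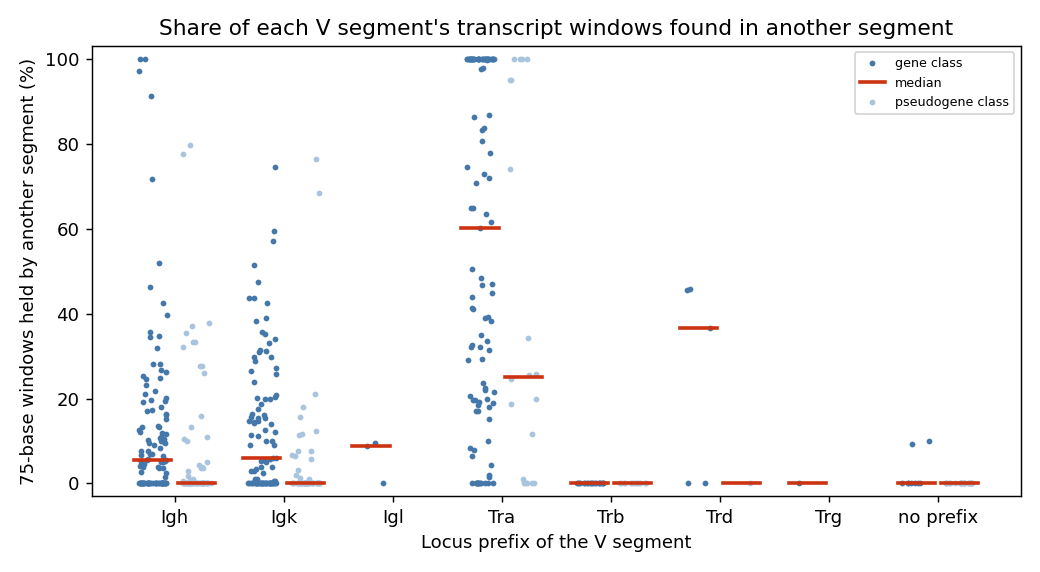
Percent of 75-base transcript windows of each V segment that another member holds on either strand (y axis) by locus prefix (x axis), gene class and pseudogenes apart, with the median as a bar. Tra gene-class points spread from 0 to 100% with a median of 60.2%, and all Trb points lie at 0%.

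Exons of 20 members (2.87%) overlapped exons of another gene by at least 1 base, against 9206 of all 46078 genes. On the opposite strand this held for 13 members (1.86%), with no opposite-strand share over all genes to set beside it. Trav13d-3 and Trav13n-3 were each covered whole by an antisense gene, and Trbv8 was covered whole by the sense gene Gm37610. Trbv5 shared 292 of its 368 bases with the lincRNA 5830405F06Rik, and Iglj2 all 38 of its bases with Iglc2. Where the strand of the reads is not marked, reads from such a segment and its antisense partner cannot be told apart.

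The genes of the wider pathway were annotated otherwise. All 25 listed genes were present, 14 of recombination and its repair, 6 receptor partners and 5 grouped with the surrogate chains. All 25 were classed as protein-coding, so that none was a member. Rag1 and Rag2, the recombinase, had union exon lengths of 6608 and 3424 bases and 1 coding exon each, whereas Dntt, which adds untemplated bases at the joins, had 12 coding exons in 2128 bases. The receptor partners Cd79a, Cd79b, Cd3d, Cd3e, Cd3g and Cd247 had a median of 1433.5 bases. Vpreb1, Vpreb2 and Vpreb3 had 2 coding exons each, the number that V segments have, and lengths of 1113, 429 and 859 bases. Igll1 and Ptcra had 3 and 4 coding exons.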

How the data were processed

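Polyadenylated RNA of 4 macrophage libraries was sequenced as paired 75-base reads, per the labels. Per the submitters' processing notes, TopHat2 with Bowtie2, Cufflinks, FastQC and CASAVA 1.8 were used, with GRCm38 and mm10 named as builds. Their roles are not stated there. The deposited file used is a gene annotation of 1500259 lines. Per the file, its start and end columns are 1-based positions (unit: other), and 0 lines carry a score. It holds no library value, so sequencing depth is unknown and no test, error or p-value was computed. No source used here names its release.

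Gene models were read with Python 3.11.15, and figures drawn with matplotlib 3.10.9. Members closer than 1 Mb formed a region. Sequences came from GENCODE M21 transcripts, of which 855 of 858 member transcripts had the deposited exons. This replaced a planned genome search, which needed a genome sequence. The signal at 1 readable end is not reported here. Windows of 75 bases from the spliced transcripts were matched on either strand. Functions for exon unions, overlaps, gaps, shared windows, recombination signals and the J motif were tested on simulated models. All 6 returned the known answers in 200 of 200 cases. The simulated signals carried the usual letters without a mismatch, so partial matches were not tried. Code for the other values was not tested in this way. Alternatives were other annotations, length measures, member classes, window sizes and match rules. The plan for named genes covered all C, D and J segments and up to 10 genes without a prefix. Per locus it added the first, last, longest, shortest, widest-spaced and opposite-strand V segments. Not all D and J segments are named here, and the printed J and D sequences are a selection. Any gene beyond that plan was picked with its values in view. The members and lists were chosen with earlier results of these data known.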

Additional observations from a re-analysis of the deposited data

How the results depend on the processing

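Of 191 alternative values for 73 results, 157 stayed within the interval, spread or 1.5-fold range of the value reported and 34 moved. The spread was the standard deviation over the segments of a group. Some of the 157 could not have moved. All members lay on the main chromosomes, so leaving out other sequences could change nothing. A group without pseudogenes stays the same when pseudogenes are left out. The count of 157 is therefore no measure of how firm the results are. Locus by position, between the outermost segments that carry its prefix, gave 10 gamma members and left 7 genes without a locus, with 0% pseudogenes among them. The letter in the name found 13 C genes. By genomic span, the median V length was 434 bases in Igh, 533 in Igk, 484 in Igl, 530 in Tra, 471.5 in Trb, 608.5 in Trd and 595 in Trg, and the median C length 4571 in Igh, 3686 in Tra, 1643.5 in Trb and 6018 in Trd. By coding length, the median C gene had 1217.5 bases in Igh, 320 in Igk, 314.5 in Igl, 410 in Tra, 524 in Trb and 458 in Trd, and V had 351 in Igl and 350 in Trg. These measures count introns or leave out untranslated exons. Without pseudogenes, the share of V segments with 2 exons was 96.5% in Igh and 100% in Igk, Tra, Trb and Trd, and 37.6% of Igk V segments lay on the strand of Igkc. With an exact heptamer, or with at least 14 of 16 bases, 3 of the 6 readable gene-class ends (50%) held a signal. These 6 include the end that is not reported here. Of pseudogene ends, 0% held one, from a single end. With 50-base windows the median shared by V segments was 21.1% in Igl and 7.01% in Trg. Over all V segments, pseudogenes included, it went from 2.42% to 18.5% in Igh, from 0.648% to 14.1% in Igk and from 46.9% to 63.6% in Tra, changes within the spread between segments but large in Igh and Igk. The choice of coding transcripts for lengths, and of gene-class J segments for the motif, was added after seeing the data and moved 0 values.

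Limits: the annotation is one release for one strain's reference, and M21 held 702 such genes, with Trbv4 and 3 V pseudogenes on chromosome 19 not among the 698. Recombination signals rest on 7 ends. Window shares cover members only, not the rest of the genome. No paired analysis was possible because no library values were used and each group has 1 library.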

Other observations

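The annotation's class did not always follow the few letters that were checked. Of 125 pseudogene V models with 2 exons, 12 had neither a stop codon in phase nor a missing cysteine codon. Of these, 8 were in kappa and 3 in the heavy-chain region. Their start codons, leaders, splice sites, V exon lengths and recombination signals were not part of this check, so the 12 may differ from genes elsewhere. The V exon of Igkv17-134 had 294 bases, against 298 in the gene-class Igkv17-127. That of the pseudogene Ighv1-14 had 305, the gene-class median of its locus. In the other direction, Iglj3p, Trbj1-7 and Traj59 were in the gene class without the J motif, and Traj59, Traj46, Traj41, Traj20, Traj3 and Iglj4 were the 6 gene-class J segments whose coding part did not leave 1 base over. Tcrg-V4 was classed IG_LV among gamma genes, and M21 classed it TR_V. Gm37227 and Gm37187 were the other members with another class in M21, and 22 members had another name there. These values carry no explanation, and none was tested.

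Some J and D models had a second transcript without coding lines that ended elsewhere. That of Igkj2 made its exon union 43 bases against 39 in the coding transcript, that of Igkj5 42 against 38, and that of Trbj1-3 54 against 50. Trdd1 (11 against 9) and Ighd5-6 (12 against 10) differed in the same way. Exon unions rather than coding transcripts would therefore place these segment ends 2 to 4 bases away.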
